A study of Mus musculus with 7 samples.

Results

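The mouse genes *AU040320*, *Gpr108* and *Tmem165*, whose products adeno-associated virus (AAV) uses on its way into the cell, were followed across the cell types of AAV-injected mouse primary visual cortex (V1) and set beside the amount of viral RNA in the same nuclei. The genes were chosen by name, as 3 of the 25871 gene columns in the count tables, and all 3 were detected: *AU040320* with 2471 unique molecular identifiers (UMIs, each standing for 1 captured transcript), *Gpr108* with 943 and *Tmem165* with 2357, over 32335 nuclei that held more than 200 non-viral UMIs. A UMI of at least 1 of the genes was found in 4527 nuclei, or 14.0% of them. At this depth a single nucleus says little about any of the genes, and the values below are therefore UMIs summed over many nuclei and divided by the non-viral UMIs of those nuclei.

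The nuclei came from 2 C57BL/6J males aged 6 to 10 weeks whose V1 had received 800 nL of a pooled AAV9 library at each of 2 neighbouring sites. Each vector of that library placed a candidate gene regulatory element (GRE), selected for accessibility in SST interneurons, and the minimal promoter of the human beta-globin gene before GFP, with barcodes in the transcript that identify the GRE. The snRNA-Seq data form a single sample in 10 inDrops libraries, 5 of each animal by the study's methods. The library names form 2 sets of 5, numbered 1 and 2, and the labels do not say which animal a library or a set belongs to. Nuclei of an uninjected cortex were not analysed here. With a single sample, no test between nuclei or libraries was made: levels carry exact 95% Poisson intervals and ratios exact 95% intervals conditional on their counts, which cover counting error only, and the libraries show the spread. The second data set was ATAC-Seq, a measure of open chromatin, of nuclei purified from the whole uninjected cortex of mice aged 6 to 12 weeks that carried the Cre-dependent nuclear tag SUN1-2xsfGFP-6xMYC and either *Sst*-IRES-Cre, *Vip*-IRES-Cre or *Pv*-Cre, with 2 samples for each of the SST, VIP and PV types.

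*AU040320* is the mouse form of KIAA0319L, the AAV receptor (AAVR), a membrane protein that cycles between the cell surface and the trans-Golgi network and carries bound capsids inward for many serotypes, AAV9 among them. *Gpr108* encodes a multi-pass membrane protein of the Golgi that most serotypes also need, at a step after binding. *Tmem165* encodes a Golgi membrane protein tied to manganese balance and to protein glycosylation, on which both receptor and surface glycans depend. These roles are background, and the counts described here are of their nuclear mRNA.

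On GRCm38 (mm10, GENCODE vM21), *AU040320* (ENSMUSG00000028830.14) lies at chr4:126753544-126870070 on the plus strand, *Gpr108* (ENSMUSG00000005823.9) at chr17:57234635-57248446 on the minus strand and *Tmem165* (ENSMUSG00000029234.13) at chr5:76183880-76209245 on the plus strand. The last 8132 bases of *AU040320* run over the end of *Zmym4* on the opposite strand, which also holds the pseudogene *Gm12937* and the snoRNA genes *Gm24161* and *Gm25604* inside *AU040320*, and 470 bases of *Tmem165* hold the pseudogene *Apc-ps1* on its own strand. Whether the counting used strand is not given in the sources used here, so reads from these stretches may not be the members' own. No other annotated gene overlaps *Gpr108*, whose RefSeq start used here lies inside the GENCODE gene. The start-site windows of the 3 genes, 300 bases around a RefSeq start (GRCm38.p6), are printed because each lay wholly inside an ATAC-Seq region that was marked as a peak in all 6 samples. Capitals mark the CCAAT box on either strand and the core of the YY1 motif.
*AU040320*, chr4:126753305-126753604, plus strand: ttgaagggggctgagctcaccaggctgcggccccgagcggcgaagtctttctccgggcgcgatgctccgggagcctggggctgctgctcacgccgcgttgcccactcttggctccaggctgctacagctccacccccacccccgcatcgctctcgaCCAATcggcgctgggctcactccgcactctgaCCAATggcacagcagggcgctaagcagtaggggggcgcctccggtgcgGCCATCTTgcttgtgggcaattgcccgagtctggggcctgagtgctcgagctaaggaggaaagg
*Gpr108*, chr17:57247640-57247939, minus strand: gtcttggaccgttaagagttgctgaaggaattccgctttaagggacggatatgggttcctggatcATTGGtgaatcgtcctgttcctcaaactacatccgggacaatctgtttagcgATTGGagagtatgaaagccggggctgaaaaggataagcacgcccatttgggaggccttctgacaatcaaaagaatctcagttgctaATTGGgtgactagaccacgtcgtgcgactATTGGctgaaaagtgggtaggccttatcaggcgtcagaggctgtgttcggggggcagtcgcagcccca
*Tmem165*, chr5:76183630-76183929, plus strand: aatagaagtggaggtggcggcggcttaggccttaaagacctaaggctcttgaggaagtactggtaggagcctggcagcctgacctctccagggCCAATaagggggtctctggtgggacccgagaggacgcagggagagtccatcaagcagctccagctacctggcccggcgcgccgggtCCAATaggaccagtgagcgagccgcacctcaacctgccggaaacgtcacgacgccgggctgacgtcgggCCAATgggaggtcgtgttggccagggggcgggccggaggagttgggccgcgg
The CCAAT box occurred more than once in all 3 windows, with 2 matches in *AU040320*, 4 in *Gpr108* and 3 in *Tmem165*. Of 32851 windows of the same length in the RefSeq table, 37.4% held this box on either strand and 11.7% held it at 2 or more places. The YY1 core (letters GCCATCTT) was found once, in *AU040320*, against 2.75% of all windows. The GC box (letters GGGCGG) was found once, in *Tmem165*, against 35.7%. Neither the TATA box (letters TATAAA), the cAMP response element (letters TGACGTCA) nor the ETS core (letters CCGGAAG) was in any of the 3 windows on either strand, against 13.6%, 1.79% and 8.86% of all windows. No searched motif overlapped another in these windows, and a match is a description of letters only. GC content was 67.3% in the *AU040320* window, 65.3% in *Tmem165* and 51.0% in *Gpr108*, against a median of 52.7% over all windows.

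Non-viral UMIs per library ranged from 2496224 to 3041931, and mean viral UMIs per nucleus from 14.0 to 19.2 in 9 libraries, with 7.47 in library 2-5. Neighbouring libraries of a set shared more cell-barcode names than other pairs did, with 339 to 821 names in each of 8 neighbouring pairs against 51 to 210 in the other 37 pairs. In all, 9813 nuclei (30.3%) had a barcode name found again in another library of their set, and libraries are therefore not fully separate. Leaving out those nuclei, an alternative chosen after the shared names were counted, was run for the member ratios of SST, PV, microglia, astrocyte, vascular and all non-neuronal nuclei and for those with against without viral UMIs over all and excitatory nuclei. It moved none of these outside its counting interval, and its values stand beside the main ones where they are given as "without shared names". Nuclei were sorted into 10 types by counts of marker genes, which placed 21239 nuclei (65.7%) in 1 gate, 69 in several and 11027 in none. The gates were 15242 excitatory, 533 SST, 447 PV, 307 VIP and 289 NPY neurons, 1661 astrocytes, 1592 oligodendrocytes, 331 oligodendrocyte precursors (OPC), 324 microglia and 513 vascular cells. Each type's own marker list was highest in its own gate, from 56.6 UMIs per 10000 for the PV list in PV nuclei to 447 for the oligodendrocyte list in oligodendrocytes. The closest approach was the excitatory list, at 65.2 in excitatory and 22.4 in oligodendrocyte nuclei. These markers chose the gates and are no result. Depth differed between gates, with a median of 320 to 399 non-viral UMIs in astrocytes, oligodendrocytes, OPC and microglia and of 739 to 1277 in the neuronal and vascular gates.

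The first question was whether the entry factors differ between cell types. In these nuclei, *AU040320* was higher in PV and SST interneurons than in excitatory neurons and lowest in microglia and vascular cells, with its highest value, on few UMIs, in OPC. *Gpr108* was highest in microglia and astrocytes, and its neuronal gates lay among or below the other non-neuronal ones. *Tmem165* varied least. Over the 5 non-neuronal gates together, the *AU040320* level was 7.21 UMIs per 100000 against 8.90 over the 5 neuronal gates, a ratio of 0.810 (interval 0.704 to 0.930). The *Gpr108* level was 5.54 against 3.00, a ratio of 1.84 (1.55 to 2.19), and the *Tmem165* level was 9.47 against 8.13, a ratio of 1.17 (1.03 to 1.32). None of the 3 ratios reached 2-fold, which 39.5% of the 10788 genes with at least 200 UMIs did in this comparison, and the median ratio of all those genes was 0.860.

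**Figure D1:**
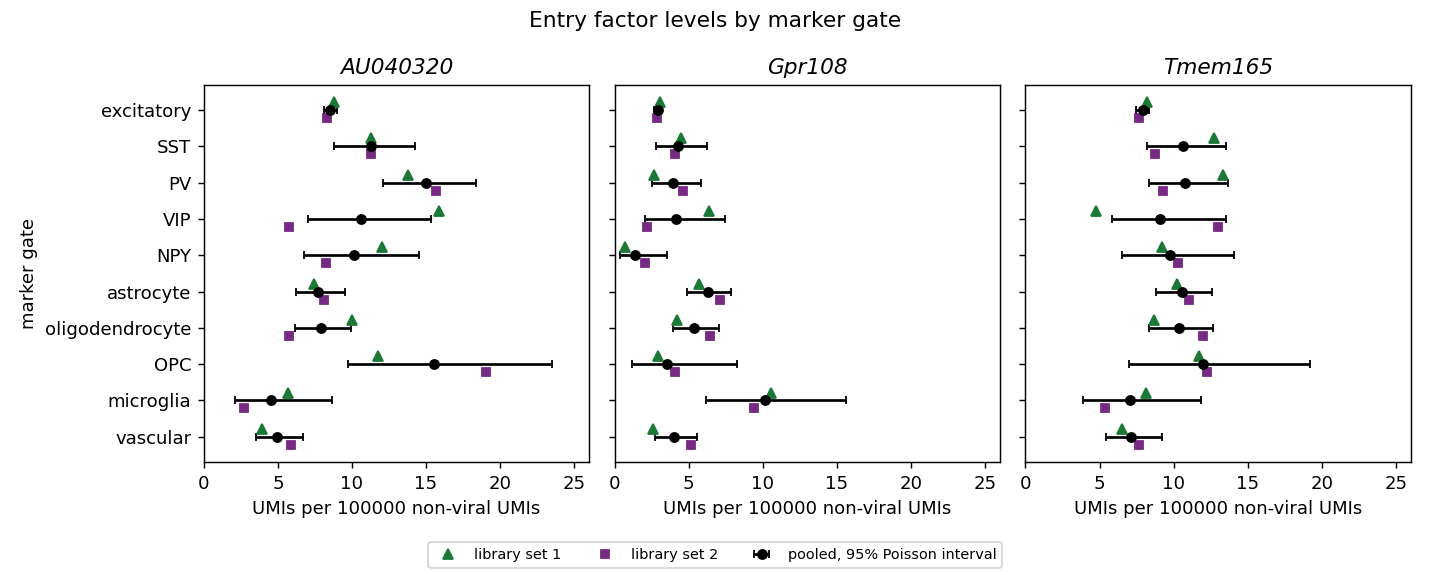
Level of each entry factor (x axis, UMIs per 100000 non-viral UMIs) in the 10 marker gates (y axis); black points are sums over all 10 libraries with exact 95% Poisson intervals, triangles and squares the 2 library sets. The *Gpr108* point for microglia (10.1) and the *AU040320* point for PV nuclei (14.99) stand to the right of the excitatory points (2.94 and 8.56), and intervals are wide in the small gates.

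*AU040320*, the receptor gene, stood at 14.99 UMIs per 100000 in PV nuclei (12.1 to 18.4, from 92 UMIs), 11.3 in SST nuclei (8.79 to 14.3), 10.6 in VIP nuclei (7.05 to 15.3), 10.1 in NPY nuclei (6.77 to 14.5) and 8.56 in excitatory nuclei (8.13 to 9.002, from 1485 UMIs). In glia it stood at 15.5 in OPC (9.74 to 23.5, from only 22 UMIs), 7.90 in oligodendrocytes (6.17 to 9.96), 7.74 in astrocytes (6.22 to 9.51) and 4.55 in microglia (2.08 to 8.64, from 9 UMIs), and in vascular cells at 4.95 (3.55 to 6.71). In the order from OPC down to microglia, every gate but 1 had an interval of its ratio to the next gate that included 1, the exception being astrocytes over vascular cells (1.56, interval 1.07 to 2.32). The ratio to excitatory nuclei was 1.75 in PV (1.404 to 2.16), 1.32 in SST (1.02 to 1.68), 1.82 in OPC (1.14 to 2.76) and 0.579 in vascular cells (0.414 to 0.789). In PV nuclei the 10 libraries ran from 6.66 to 23.2 with a median of 15.8, and both library sets lay above the excitatory level of their own set, at 13.8 against 8.82 in set 1 and 15.7 against 8.33 in set 2. In VIP nuclei the sets stood apart, with 15.9 in set 1 and 5.79 in set 2. Without shared names the ratio to excitatory nuclei was 1.502 in PV, 1.4 in SST and 0.628 in vascular cells. Leaving out each library in turn gave 1.65 to 1.85, 1.22 to 1.38 and 0.543 to 0.638. The microglia level, on 9 UMIs, had a ratio of 0.532 to excitatory nuclei, with an interval of 0.243 to 1.01 that included 1. Leaving out each library in turn gave 0.338, without library 1-1, to 0.615. The median ratio to excitatory nuclei over all genes compared was 0.674 in microglia and 0.700 in vascular cells.

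*Gpr108* stood at 10.1 UMIs per 100000 in microglia (6.18 to 15.6, from 20 UMIs), 6.28 in astrocytes (4.92 to 7.89, from 73), 5.34 in oligodendrocytes (3.94 to 7.08), 3.98 in vascular cells (2.74 to 5.59) and 3.53 in OPC (1.15 to 8.24). Among neurons it stood at 4.25 in SST (2.78 to 6.24), 4.17 in VIP (2.08 to 7.46), 3.91 in PV (2.51 to 5.82), 2.94 in excitatory (2.69 to 3.21, from 510 UMIs) and 1.39 in NPY nuclei (0.380 to 3.57, from 4 UMIs). No gate was separated from the next one in this order beyond the counting interval. Against excitatory nuclei, the ratio was 3.44 in microglia (2.09 to 5.37), 2.14 in astrocytes (1.65 to 2.73) and 1.82 in oligodendrocytes (1.32 to 2.44). Both library sets showed the 3 glial gates above excitatory nuclei. In microglia the sets gave 10.5 and 9.42, in astrocytes 5.70 and 7.09, and in excitatory nuclei 3.05 and 2.84. Without shared names the ratios for microglia and astrocytes were 3.58 and 2.05, and leaving out each library in turn gave 3.11 to 3.69 and 2.00 to 2.32. Barcodes under the depth limit, which may hold free RNA, carried *Gpr108* at 4.34, *AU040320* at 8.52 and *Tmem165* at 6.21 UMIs per 100000, and the part of free RNA in the levels by gate was not tested.

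*Tmem165* had the narrowest range, from 12.0 UMIs per 100000 in OPC (6.996 to 19.2), 10.8 in PV (8.32 to 13.7), 10.6 in SST (8.21 to 13.6), 10.6 in astrocytes (8.79 to 12.6) and 10.3 in oligodendrocytes (8.35 to 12.7), through 9.76 in NPY (6.48 to 14.1) and 9.09 in VIP (5.82 to 13.5), to 7.90 in excitatory nuclei (7.49 to 8.33), 7.12 in vascular cells (5.42 to 9.19) and 7.08 in microglia (3.87 to 11.9). No neighbours in this order were separated. Ratios to excitatory nuclei were 1.36 in PV (1.05 to 1.74), 1.35 in SST (1.03 to 1.73), 1.34 in astrocytes (1.10 to 1.61) and 1.31 in oligodendrocytes (1.05 to 1.61). In SST nuclei set 1 gave 12.7 and set 2 gave 8.76, against 8.19 and 7.66 in excitatory nuclei. The VIP gate had the sets farthest apart, at 4.77 and 13.0.

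A 2-fold difference from excitatory nuclei was seen in 3 of 27 pairs of a gene and a gate, all of them *Gpr108*: higher in microglia and astrocytes and lower in NPY nuclei (0.474), where the interval of 0.129 to 1.22 included 1. Among all genes with at least 200 UMIs over both gates, such a difference was seen for 14.8% in SST, 19.7% in PV, 23.9% in VIP, 18.6% in NPY, 40.3% in astrocyte, 27.4% in oligodendrocyte, 35.3% in OPC, 45.1% in microglia and 55.2% in vascular nuclei, shares that counting noise in the small gates also enters. The median ratio over those genes was under 1 in each gate, from 0.974 in PV to 0.674 in microglia. The patterns of the 3 members were compared over 20 points (10 gates by 2 library sets, log2 of UMIs scaled to a common total, with a pseudocount of 10). As a description, Pearson's r was 0.32 between *AU040320* and *Tmem165*, -0.29 between *AU040320* and *Gpr108* and -0.29 between *Gpr108* and *Tmem165*, where points of a library set share their libraries. Among 7990 genes with at least 500 UMIs, those with patterns most like *AU040320* were *Gpatch2* (r = 0.88), *St8sia1* (0.86) and *Atp6v1h* (0.84), those most like *Gpr108* were *Rrbp1* (0.79), *Necap2* (0.77) and *Plod3* (0.77), and those most like *Tmem165* were *Tmem260* (0.78), *Dbt* (0.74) and *Gpr137* (0.73).

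The second question was how these levels line up with viral load. Viral UMIs count transcripts of the GRE library after a PCR enrichment of viral cDNA and do not count vector genomes, and the GREs had been picked for SST interneurons. To compare types at equal depth, each nucleus was thinned at random to 300 non-viral UMIs and its viral UMIs in the same proportion, leaving out shallower nuclei, which were 830 of the excitatory and 689 of the oligodendrocyte gate. Thinned means were 13.2 viral UMIs per nucleus in SST, 7.79 in PV, 6.41 in VIP, 6.08 in NPY, 4.66 in excitatory, 4.32 in OPC, 3.77 in astrocyte, 3.18 in oligodendrocyte, 3.02 in microglia and 0.976 in vascular nuclei. The 11027 nuclei in no gate, which this order leaves out, had a thinned mean of 6.57, above the VIP, NPY and excitatory means. Their mean without thinning was 12.5. SST nuclei ranged from 7.78 to 16.9 over the 10 libraries and excitatory nuclei from 1.84 to 6.10, which do not overlap. Vascular nuclei ranged from 0.205 to 2.16 and were below excitatory nuclei in each of the 10 libraries. Without thinning the means were 56.3 in SST, 36.3 in PV, 20.2 in NPY, 18.5 in excitatory, 17.9 in VIP, 7.67 in astrocyte, 6.45 in OPC, 6.22 in microglia, 6.18 in oligodendrocyte and 4.398 in vascular nuclei, so that the place of VIP relative to excitatory nuclei depended on the thinning. Viral UMIs were also found on 79.4% of the 15013 barcodes that did not pass the depth limit of 200.

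**Figure D2:**
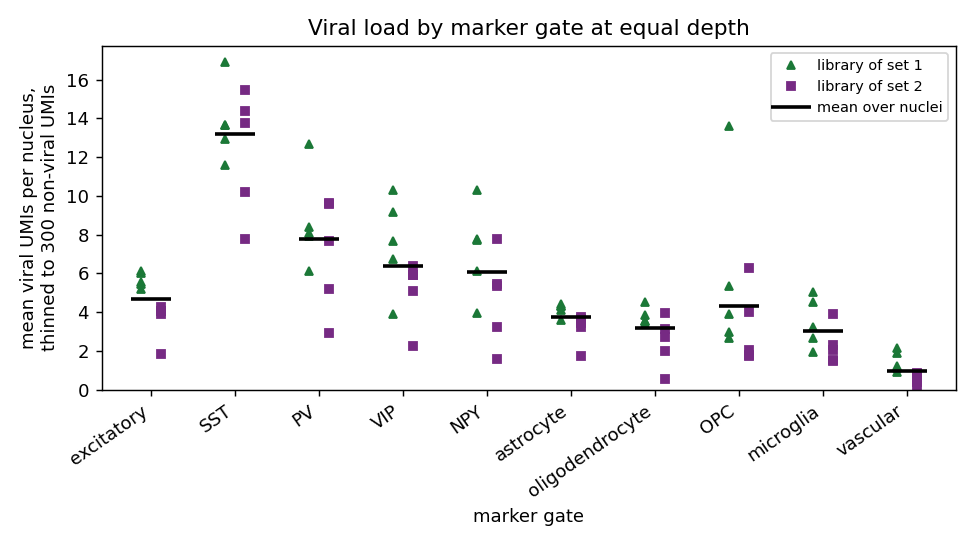
Mean viral UMIs per nucleus after thinning to 300 non-viral UMIs (y axis) in the 10 marker gates (x axis); each triangle or square is 1 library of set 1 or 2 and the bar is the mean over nuclei. The SST mean (13.2) lies above every other mean and the vascular mean (0.976) below, and 1 OPC library stands at 13.6. Nuclei in no gate are not shown.

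Set beside these loads, *AU040320* was the member whose order was closest. Over the 10 gates, Spearman's rho between the gate's level and its thinned viral mean was 0.78 for *AU040320* (Pearson's r = 0.55), 0.53 for *Tmem165* (r = 0.45) and -0.36 for *Gpr108* (r = -0.27). Within the 5 neuronal gates rho was 0.90 for *AU040320* and 0.80 for both others, and within the 5 non-neuronal gates it was 0.80, 0.90 for *Tmem165* and -0.30 for *Gpr108*. These are descriptions over 10 or 5 points from the same libraries, with levels whose intervals overlap, and they are given without a test. The match was loose in its details. SST nuclei had 2.83 times the viral load of excitatory nuclei (5.17 times with every nucleus assigned by multinomial likelihood) but 1.32 times the *AU040320* level, and PV nuclei, with the higher *AU040320* level of the 2 interneuron gates, had the lower load. Vascular nuclei had a viral load 0.210 times and an *AU040320* level 0.579 times those of excitatory nuclei. The promoter and GREs that drive the viral transcripts differ in activity between cell types, and their part in these loads was not tested.

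The third question was whether nuclei with viral UMIs differed in entry factor expression from nuclei without. A viral UMI need not be the nucleus's own RNA: as given above, 79.4% of the barcodes under the depth limit held one too, and the part of free viral RNA in the groups was not tested. No difference beyond counting error was found for any of the 3 genes, neither over all nuclei nor within excitatory neurons. Over all nuclei, 27844 had at least 1 viral UMI and 4491 had none. *AU040320* stood at 8.63 UMIs per 100000 in the first group (8.28 to 9.001) and 9.08 in the second (8.02 to 10.2), a ratio of 0.951 (0.837 to 1.08). It was higher with viral UMIs in 3 libraries and lower in 7. The libraries ran from 7.40 to 9.27 with viral UMIs (median 8.44) and from 4.94 to 12.1 without (median 9.45), and the groups overlapped.

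*Gpr108* stood at 3.26 UMIs per 100000 with viral UMIs and 3.77 without, a ratio of 0.865 (0.709 to 1.07), higher in 4 libraries and lower in 6. Its libraries ran from 2.57 to 3.81 with and from 2.21 to 7.26 without. *Tmem165* stood at 8.18 with and 9.11 without, a ratio of 0.898 (0.790 to 1.02), higher in 3 libraries and lower in 7, with libraries from 7.18 to 9.28 and from 6.42 to 14.1. All 3 ratios were below 1 and all 3 intervals included 1. No member differed by 1.5-fold, which 8.91% of the 11398 genes with at least 200 UMIs did, most of them lower with viral UMIs (731 against 284).

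The groups of nuclei with and without viral UMIs were not alike in type or depth. Excitatory nuclei made up 48.3% of nuclei with viral UMIs and 39.7% of those without, SST nuclei 1.82% and 0.557%, and PV nuclei 1.49% and 0.690%. Oligodendrocytes made up 4.38% and 8.28%, astrocytes 4.89% and 6.66%, and vascular cells 1.39% and 2.81%. Median depth was 758 non-viral UMIs with and 480 without. With both groups weighted to one mix of types, the ratios were 0.937 for *AU040320*, 0.921 for *Gpr108* and 0.919 for *Tmem165*, and nuclei with viral UMIs were the higher in 4, 3 and 3 of the 10 gates. Thinning to 300 non-viral UMIs also thinned the viral UMIs and formed the groups again, with 19234 nuclei with and 6957 without a viral UMI left, so that many of the latter had held viral UMIs at full depth. Between these groups the ratios were 0.963 (0.811 to 1.15), 0.909 (0.693 to 1.20) and 0.879 (0.740 to 1.05). The ratio without shared names was 0.925, 0.784 and 0.930.

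Within excitatory nuclei, 13457 with viral UMIs and 1785 without, the *AU040320* levels were 8.56 (8.11 to 9.03) and 8.47 (7.09 to 10.1), a ratio of 1.01 (0.845 to 1.22), higher with viral UMIs in 6 libraries and lower in 4. The libraries ran from 7.24 to 9.68 with and from 4.49 to 14.6 without. *Gpr108* stood at 2.93 with and 3.02 without, a ratio of 0.971 (0.718 to 1.34), higher in 5 libraries and lower in 5, with libraries from 2.20 to 3.65 and from 1.52 to 7.21, and leaving out each library in turn gave ratios of 0.824 to 1.23. *Tmem165* stood at 7.85 with and 8.47 without, a ratio of 0.926 (0.773 to 1.12), higher in 3 libraries and lower in 7, with libraries from 7.08 to 8.66 and from 4.99 to 18.7. The wider spread among nuclei without viral UMIs went with their smaller number. None of the 3 reached 1.5-fold, against 4.24% of the 9578 genes tested, of which more were higher with viral UMIs (298) than lower (108).

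**Figure D3:**
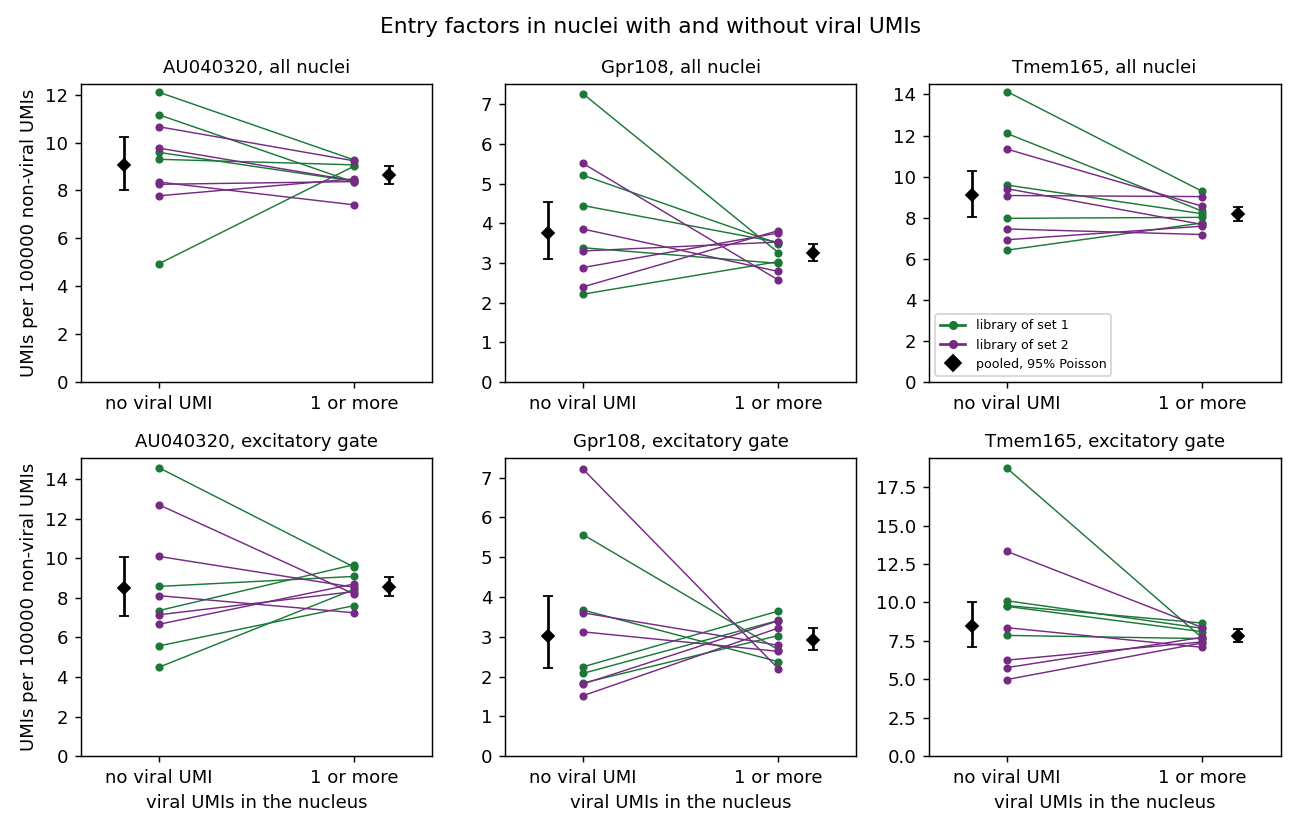
Level of each entry factor (y axis, UMIs per 100000 non-viral UMIs) in nuclei without and with viral UMIs (x axis), over all nuclei and within excitatory nuclei; each line joins the 2 values of 1 library, green for set 1 and purple for set 2, and black points beside the lines are sums over all 10 libraries with exact 95% Poisson intervals. Lines run both up and down, and the summed values of *AU040320* in excitatory nuclei are 8.47 without and 8.56 with viral UMIs.

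Depth again differed within the excitatory gate, with a median of 1065 non-viral UMIs with and 780 without viral UMIs. Thinned to 300 UMIs, with the groups again formed from the thinned viral UMIs (10377 nuclei with and 4035 without, against 13457 and 1785 before), the ratios were 1.07 for *AU040320* (0.848 to 1.36), 0.836 for *Gpr108* (0.5682 to 1.25) and 1.07 for *Tmem165* (0.840 to 1.39). In nuclei of over 200 and up to 500 UMIs they were 1.08 (0.567 to 2.22), 0.945 (0.341 to 3.24) and 0.689 (0.357 to 1.42). In nuclei of over 500 and up to 1000 UMIs they were 1.27 (0.906 to 1.82), 1.21 (0.705 to 2.24) and 0.975 (0.704 to 1.38), and in nuclei of over 1000 they were 0.897 (0.715 to 1.14), 0.896 (0.605 to 1.38) and 0.907 (0.718 to 1.16). Of the marker lists of other types, the NPY list was the highest in excitatory nuclei, at 8.02 UMIs per 10000 with and 6.87 without viral UMIs, followed by the PV list at 2.63 and 3.33 and the oligodendrocyte list at 2.03 and 2.12. The others stood between 0.146 (VIP) and 1.70 (astrocyte), the microglia list at 0.650 and 0.867 and the SST list, which had the highest ratio of all lists, at 0.684 and 0.494. None of the markers was at 0 in either group. The part of these lists in the member ratios was not tested. The 12 excitatory markers chose the gate by a fixed number of UMIs, which a shallower nucleus meets only with a higher share of them, so their summed levels of 64.2 UMIs per 10000 with and 75.9 without viral UMIs are no result.

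The other 9 gates held 25 to 372 nuclei without viral UMIs each, with 0 to 20 UMIs of a member in them. Where both groups held UMIs of a member, the ratios ran from 0.183 to 2.97. The 5 lowest each rested on fewer than 10 UMIs in the nuclei without. For *AU040320* these were NPY nuclei, at 8.13 with and 28.0 without (0.290, interval 0.124 to 0.758), and microglia, at 2.49 with and 13.6 without (0.183, 0.0363 to 0.849), and for *Tmem165* NPY nuclei, at 8.13 with and 24.5 without (0.332, 0.136 to 0.924). *Gpr108* in PV (0.283, 0.0948 to 1.14) and VIP nuclei (0.299, 0.0619 to 2.84) had intervals that included 1. The highest ratio, that of *Tmem165* in microglia (2.97, 0.446 to 126), also had an interval that included 1. Of 27 pairs of a gate and a gene, 3 had an interval that left out 1. How many of all genes have such intervals in these gates was not counted. In 3 pairs no UMI was counted in the nuclei without viral UMIs, and a count of 0 there allows up to 14.3 UMIs per 100000 for *Gpr108* in SST, 10.5 for *Gpr108* in NPY and 9.13 for *Tmem165* in PV nuclei, counting 3 UMIs as the limit. Against these, the level with viral UMIs was 4.41, 1.55 and 11.4. The exact 95% upper limits of the zero counts were 17.6, 12.9 and 11.2, and the ratio interval of *Tmem165* in PV nuclei, from 0.984 upward, included 1. In SST nuclei, the type the GREs were selected for, *AU040320* stood at 11.01 in 508 nuclei with viral UMIs (8.50 to 14.0) and 19.1 in 25 without (5.21 to 49.0), a ratio of 0.576 whose interval of 0.214 to 2.18 is too wide to place it.

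Graded by viral load, excitatory nuclei with 0, 1 to 3, 4 to 15 and 16 or more viral UMIs numbered 1785, 4136, 4902 and 4419. *AU040320* stood at 8.47, 7.62, 8.84 and 8.91 UMIs per 100000 in these classes. The highest class exceeded the class of 1 to 3 by a ratio of 1.17 (1.02 to 1.35), in 6 of 10 libraries, and the class without viral UMIs by 1.05 (0.869 to 1.28). *Tmem165* stood at 8.47, 7.67, 8.40 and 7.49, with a ratio of the highest class to that of 1 to 3 of 0.977 (0.845 to 1.13). *Gpr108* stood at 3.02, 3.32, 3.22 and 2.45. Its highest class was lower than that of 1 to 3 by a ratio of 0.738 (0.581 to 0.938) and than that of 4 to 15 by 0.759 (0.608 to 0.947), in 7 of 10 libraries each. Against the class without viral UMIs the ratio was 0.810 (0.582 to 1.15). These ratios share the highest class, and no share over all genes was computed for the classes. Depth rose along the classes, from a median of 780 through 872 and 1023 to 1314 non-viral UMIs. Thinning to 300 UMIs moved nuclei to lower classes, which then held 4035, 5376, 3958 and 1043 nuclei in place of 1785, 4136, 4902 and 4419 and are not the same nuclei. In these classes the *Gpr108* levels were 3.30, 3.72, 2.02 and 0.639, the last from only 2 UMIs. Thinned *AU040320* levels were 8.26, 8.50, 9.26 and 8.95. Those of *Tmem165* were 7.35, 9.05, 6.57 and 7.03, with the class of 1 to 3 now the highest.

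**Figure D4:**
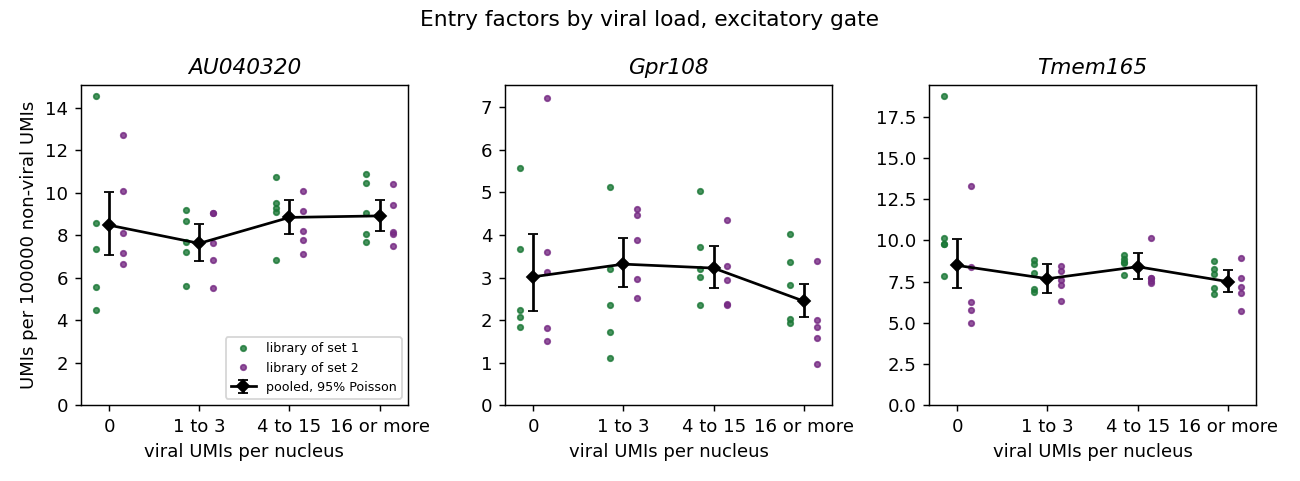
Level of each entry factor (y axis, UMIs per 100000 non-viral UMIs) in excitatory nuclei with 0, 1 to 3, 4 to 15 and 16 or more viral UMIs (x axis); green and purple points are libraries of set 1 and set 2 and black points are sums over the 10 libraries with exact 95% Poisson intervals. *Gpr108* is lowest in the highest class (2.45), and the libraries of neighbouring classes overlap.

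Read the other way, excitatory nuclei were grouped by whether a member UMI was left after thinning, which thinned the member UMIs too. Those with an *AU040320* UMI left had a thinned mean of 4.75 viral UMIs against 4.65 in those without, higher in 4 of 10 libraries. Those with a *Tmem165* UMI left had 4.05 against 4.67, higher in 3. Those with a *Gpr108* UMI left had 2.85 against 4.67, higher in 1. In this order, 359, 317 and 120 nuclei had a member UMI left, against 1245, 1167 and 437 at full depth. Without thinning, all 3 means were higher with the member UMI, at 26.4 against 17.8, 20.7 against 18.3 and 24.1 against 18.3. For *Tmem165* and *Gpr108* this was the opposite of the thinned order, in groups that are not the same nuclei. Nuclei in which a member was detected were the deeper ones, with a median of 1294 against 1008 UMIs for *AU040320*.

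To place the members among other genes, 46 host genes linked to AAV infection, not all of them as factors it uses, were grouped by role. Of these, *Extl3* had no column in the tables. Over all nuclei, none of 13 genes of Golgi and retrograde transport differed by 1.5-fold between nuclei with and without viral UMIs, and their median ratio was 0.960 against 1.00 over all genes tested. Smaller differences were present, as at *Tmed10*, a cargo receptor of the early secretory pathway (0.801, 0.744 to 0.864), and *Tm9sf2*, a Golgi protein (0.814, 0.763 to 0.869), both named after their values were seen. Nor did any of the 8 genes of capsid uptake and handling, with a median of 0.954. Of the 9 attachment receptors and co-receptors with enough UMIs, 5 were lower with viral UMIs and none higher, with a median of 0.661, against 731 lower and 284 higher of the 11398 genes tested. Some gates were also scarcer with viral UMIs. Vascular nuclei made up 1.39% of nuclei with and 2.81% of nuclei without, OPC 0.916% and 1.69%, and microglia 0.894% and 1.67%, and the part of this makeup in the receptor ratios was not tested. Among the 5 receptors were *Pdgfra*, the PDGF receptor that AAV5 uses and itself a marker of the OPC gate (4.88 with and 10.9 without, ratio 0.448), *Ly6a*, the surface protein that the brain-crossing variant AAV-PHP.B uses (13.3 and 27.8, 0.478), *Itgb1*, an integrin subunit (11.6 and 18.4, 0.627), and *Car4*, a surface carbonic anhydrase (4.01 and 6.06, 0.661). The fifth, *Itgb5* (1.38 and 3.53, 0.392), and *St6gal1* (1.51 and 2.36, 0.639), a sialyltransferase and the single glycan gene of 13 to differ, fell below the minimum set for naming and are named after their values were seen. The highest ratios were those of *Fam20b*, a xylose kinase of proteoglycan synthesis (1.33, 1.17 to 1.52), *Arhgap26* (1.16, 1.03 to 1.31), *Psmb5* (1.10, 0.910 to 1.35) and *St3gal5* (1.10, 1.04 to 1.17). The interval of *Psmb5* included 1. Between the groups formed after thinning to 300 non-viral UMIs, 1 of the 36 genes of the lists with enough UMIs differed by 1.5-fold, against 210 of 7455 over all genes.

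Within excitatory nuclei, most receptors that differed over all nuclei could not be compared. None of 12 Golgi, 6 receptor and 7 uptake genes with enough UMIs differed by 1.5-fold, with median ratios of 0.977, 0.978 and 0.977 against 0.999 over all genes. *Pdgfra* (0.514, interval 0.327 to 0.842), *Itgb5* (0.608, 0.254 to 1.76) and *Ly6a* had too few UMIs there to be included. *Ly6a*, with 87 UMIs with and 1 without (8.58, 1.499 to 343), stood in the opposite direction to its ratio over all nuclei. *Itgb1* and *Car4* stood at 0.835 (0.691 to 1.02) and 0.872 (0.662 to 1.17). Of 10 glycan genes, 1 was lower with viral UMIs, *Xylt2* (0.643, 0.456 to 0.931), also named after its value was seen. *Tm9sf2* stood at 0.839 (0.764 to 0.922) and *B3gat3* at 0.868 (0.700 to 1.09). *Fam20b* was again the highest at 1.31 (1.10 to 1.56), followed by *Slc35a1*, the CMP-sialic acid transporter (1.19), *Arhgap26* (1.19) and *Fgfr1* (1.18).

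Between SST nuclei, which had the highest viral load, and excitatory nuclei, a difference of at least 2-fold was seen in 3 of 6 receptor, 2 of 10 glycan, 1 of 7 uptake and none of 12 Golgi genes, against 14.8% of all genes, so that the share over the 4 lists together was near that of all genes. *Fgfr1*, a receptor named as a co-receptor of AAV2, was higher (7.36 against 2.39 UMIs per 100000, ratio 3.08), as was *Ctsl*, a lysosomal protease (18.7 against 8.67, 2.15). *Ext1*, a heparan sulfate polymerase, was lower (3.76 against 19.7, 0.191, 0.121 to 0.287), on 23 UMIs in SST nuclei. *Itgav*, an integrin subunit (0.345, 0.218 to 0.519, also on 23 UMIs), and *St3gal5*, a ganglioside sialyltransferase (0.352, 0.289 to 0.424), were lower too. *Car4* was lower on only 4 UMIs in SST nuclei (0.202, 0.055 to 0.5215). The median ratios of the lists were 0.814 for Golgi, 0.656 for receptor, 1.09 for glycan and 1.28 for uptake genes, against 0.947 over all genes.

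Accessibility of the 3 genes was measured in other mice and had replicates. Reads in regions numbered 1801883 to 2256073 per sample. Each type's namesake gene was the most open in its own samples, with 22.6 and 24.8 CPM (reads scaled to an equal total per sample) at *Sst* in SST samples against 1.02 to 2.77 elsewhere, 33.0 and 42.7 at *Pvalb* in PV samples against 12.4 to 17.7, and 15.4 and 18.3 at *Vip* in VIP samples against 1.02 to 3.67. In such bulk samples fewer nuclei with an open site and less opening per nucleus cannot be told apart. Each type was compared with the mean of the other 2 in edgeR's quasi-likelihood test over all 6 samples, with Benjamini-Hochberg adjustment over 40338 regions. By the study's methods each sample was a separate experiment on the nuclei of a single animal. Where 1 of the 2 replicates of a type was left out, the spread came from the other types alone, and the lone sample was assumed to vary as they do.

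All 3 start sites differed between interneuron types, but not in the same direction. Of all 40338 regions, 13.6% passed the test for SST, 28.8% for PV and 48.9% for VIP. No share was computed for start sites alone. The regions at the start of *AU040320* and *Gpr108* were most open in VIP nuclei, and that of *Tmem165* was least open there. For the *AU040320* region (chr4:126753110-126753973), the 2 PV samples gave 45.2 and 52.8 TMM-scaled CPM, the VIP samples 120 and 115, and the SST samples 41.5 and 63.3. The VIP samples stood apart, and PV and SST overlapped. The log2 fold for VIP was 1.21 (SE 0.20, adjusted p = 0.000135), for PV -0.68 (SE 0.22, adjusted p = 0.029) and for SST -0.52 (SE 0.22, adjusted p = 0.126). The PV call was lost without PV replicate 1 (-0.64, adjusted p = 0.206) or 2 (-0.80, adjusted p = 0.104). The SST fold was -0.86 without SST replicate 2 (adjusted p = 0.0021), a value that rests on 1 SST sample. The window printed above lies inside this region.

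For the *Gpr108* region (chr17:57247239-57248156), PV samples gave 77.8 and 70.7 CPM, VIP samples 135 and 162, and SST samples 92.3 and 127. The 3 types did not overlap, with SST between the others. The log2 fold was 0.72 for VIP (adjusted p = 0.00364), -0.78 for PV (adjusted p = 0.00734) and 0.06 for SST (adjusted p = 0.876). The VIP call was lost without VIP replicate 2 (0.68, adjusted p = 0.0616) and the PV call without PV replicate 2 (-0.71, adjusted p = 0.0877). For the *Tmem165* region (chr5:76183524-76184680), PV samples gave 90.3 and 70.7 CPM, VIP samples 23.8 and 27.0, and SST samples 70.1 and 40.9. The log2 fold was -1.39 for VIP (adjusted p = 0.000481), 1.10 for PV (adjusted p = 0.00326) and 0.29 for SST (adjusted p = 0.513). The PV call was lost without PV replicate 1 (0.84, adjusted p = 0.12). The SST samples stood far apart, so that the SST fold was 0.63 without SST replicate 2 (adjusted p = 0.0284) and -0.13 without SST replicate 1 (adjusted p = 0.789), each resting on 1 SST sample.

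**Figure D5:**
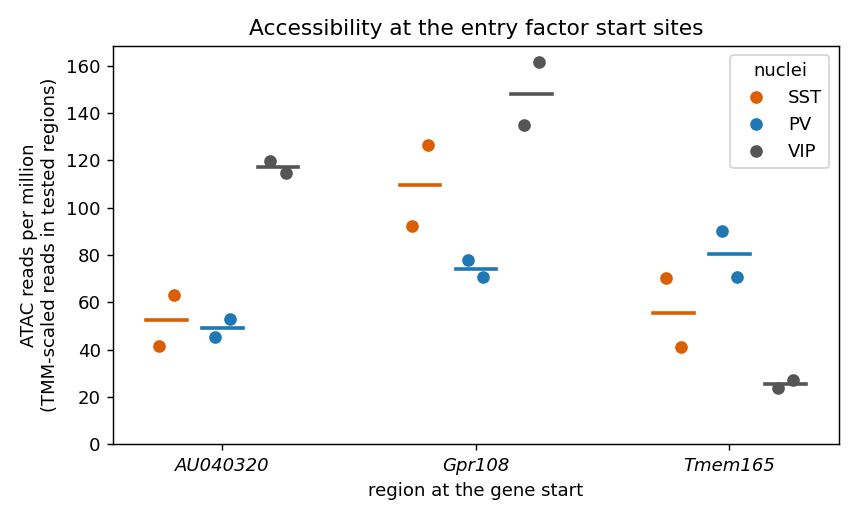
Accessibility (y axis, TMM-scaled CPM) of the start-site region of each gene (x axis) in SST, PV and VIP nuclei (colours); each point is 1 sample and the bar is the mean of the 2 samples. VIP samples are highest at *AU040320* (120 and 115) and lowest at *Tmem165* (23.8 and 27.0).

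In all, 33 regions of the reference set touched the 3 genes, 23 at *AU040320*, 3 at *Gpr108* and 7 at *Tmem165*. Of these, 26 had at most 11 reads in any sample and were not tested. Of the 7 tested, 1 passed the test for SST, 5 for PV and 5 for VIP, against 13.6%, 28.8% and 48.9% of all regions. Besides the start sites, these included a region in an intron of *AU040320* (chr4:126778922-126779861) with 11 and 10 reads in PV samples, 12 and 9 in SST samples and 1 and 0 in VIP samples. Its log2 fold was 2.20 for PV (adjusted p = 0.0143), 2.00 for SST (adjusted p = 0.0414) and -4.20 for VIP (adjusted p = 0.00057). The fold for VIP rests on a single read there. Reads in PV and SST samples were alike, so the folds for PV and SST rest on the same low VIP counts. The region beside the *Gpr108* start site (chr17:57248176-57248782), which covers the first base of the GENCODE gene and was marked as a peak in none of the samples, gave 28 and 19 reads in PV, 77 and 77 in VIP and 35 and 83 in SST samples, with a log2 fold of 0.93 for VIP (adjusted p = 0.0121) and -1.34 for PV (adjusted p = 0.0062). The 2 remaining tested regions, over exons of *AU040320*, passed in no type.

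The scaling of these samples mattered for the direction of calls across all regions. Of the regions called, 60.1% were higher in SST, 59.3% in PV and 50.9% in VIP, whereas DESeq2 with its size factors gave 45%, 25% and 77.6%, and edgeR without a filter on low counts gave 72.4%, 59.5% and 78.2%. DESeq2 moved the median log2 fold of all regions by -0.06 for SST, -0.19 for PV and 0.26 for VIP. The VIP folds at the 3 start sites were larger in size than that shift. The PV calls at all 3 start sites were lost without the filter (adjusted p = 0.146 for *AU040320*, 0.104 for *Gpr108* and 0.184 for *Tmem165*, edgeR), and that at *Tmem165* also with DESeq2 (adjusted p = 0.0566). The VIP call at *Tmem165* was lost without the filter (adjusted p = 0.0536). Set beside the snRNA-Seq levels of the same gates, the start site of *AU040320* was most open in VIP samples, where its mRNA stood at 10.6 UMIs per 100000 against 14.99 in PV and 11.3 in SST nuclei. In library set 1 the VIP level was the higher, at 15.9 against 13.8 in PV nuclei, with 39.6 in library 1-2. *Gpr108*, whose start site was least open in PV samples, stood at 3.91 in PV, 4.17 in VIP and 4.25 in SST nuclei. *Tmem165*, whose start site was least open in VIP samples, stood at 9.09 in VIP, 10.6 in SST and 10.8 in PV nuclei. For each gene the intervals of these gates overlapped. With 3 types in different mice no relation was computed.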

How the data were processed

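The members and the gene lists were chosen with earlier results of these data known. Viral and gene UMI counts per nucleus were deposited by the authors as raw counts, made with the inDrops pipeline on GRCm38 with 1 added contig per viral barcode, including libraries enriched by PCR for viral transcripts. The annotation and use of strand in that counting are not given in the sources used here. ATAC-Seq read counts per region were deposited by the authors as raw counts after Trimmomatic 0.33, Subread 1.4.6-p3 and featureCounts on mm10, with peaks called per sample by MACS2 and HOMER. The table of peak marks holds a 0 or 1 per region and sample, and its conservation values are phyloP scores deposited by the authors, which enter no result here. Columns of the authors' own specificity values and the separate peak lists were not used.

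The depth limit was over 200 UMIs of genes per nucleus, as in the study's methods. A gate needed a minimum of UMIs over its marker list (3 for excitatory, SST, NPY, OPC, microglia and vascular nuclei, 2 for PV and VIP, 4 for astrocytes and oligodendrocytes), more UMIs than over the excitatory list and the most of the interneuron or of the glial and vascular lists. Interneuron gates also needed at least 1 UMI of *Gad1*, *Gad2* or *Slc32a1* and 1 of the namesake gene, and the excitatory gate 5 times as many excitatory as inhibitory UMIs and no fewer than over the other lists but NPY. These minimums were set after marker counts, but before member values by gate, were seen. A nucleus in several gates was used in none, and no doublet caller was run. Genes needed 200 UMIs over both groups to be compared, and called meant a ratio of at least 2 or at most 1/2 between types, and of at least 1.5 or at most 1/1.5 between nuclei with and without viral UMIs. Host genes were named where they had at least 500 UMIs in gated nuclei and were among the 4 highest or 4 lowest ratios. Intervals are exact at 95% and cover counting error only, and viral UMIs passed through PCR enrichment.

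ATAC-Seq regions were tested with edgeR 4.0.16 (filterByExpr, TMM, quasi-likelihood, adjusted p under 0.05) in R 4.3.3, with DESeq2 1.42.0 as an alternative. Other steps used Python 3.11.15, numpy 2.4.6 and scipy 1.17.1, and the code was tested on simulated data. The same replicate numbers did not pair the ATAC-Seq samples (correlations of deviations 0.04, 0.03 and -0.06 over 20169 regions). The alternatives tried were other gates and depth limits, thinning, each library, library set or sample left out, the 861 barcodes of the GREs alone, another filter and the replicate block.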

Additional observations from a re-analysis of the deposited data

Results flagged for a closer look

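Within groups of 10 libraries, 60 sets of values were examined for a single library far from the rest by Dixon's criterion, and 10 were found. The criterion is set to flag about 1 in 20 sets of independent, normally spread values. Many of these sets are sparse counts, and they share libraries, so the 10 found cannot be set against that share. For the members, *AU040320* in VIP nuclei stood at 39.6 UMIs per 100000 in library 1-2 against 3.27 to 17.6 in the others, and in microglia at 15.5 in library 1-1 against 0 to 7.52. *Gpr108* in vascular nuclei stood at 9.86 in library 2-1 against 0 to 5.25. *Tmem165* in oligodendrocytes stood at 18.8 in library 2-1 against 4.64 to 11.9. The ratio of *AU040320* between nuclei with and without viral UMIs over all nuclei was 1.82 in library 1-1 and 0.748 to 1.09 in the others, so that the 3 libraries with a ratio above 1 include one far above.

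For viral load, library 2-5 stood low. Its mean over all nuclei was 7.47 viral UMIs against 14.0 to 19.2 in the others. After thinning it gave 1.83 in excitatory nuclei (others 3.90 to 6.10), 1.73 in astrocytes (3.22 to 4.44) and 2.41 in nuclei of no gate (5.58 to 7.72). In OPC nuclei, library 1-5 stood high at 13.6 against 1.71 to 6.29.

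Outside the nuclei used here, 79.4% of the 15013 barcodes that did not exceed 200 UMIs of genes carried a viral UMI.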

How the results depend on the processing

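Of 306 ratios of a member between types under an alternative, 304 stayed within the counting interval of the main value. Where that interval left out 1, they also kept its direction. So did 57 of 57 for nuclei with and without viral UMIs and 62 of 63 of the same within excitatory nuclei. For viral load, 173 of 180 stayed within a band around the main value set by the standard deviation of the log2 ratios of the libraries. Many of these alternatives left out a single library and shared most nuclei with the main value. They could therefore hardly leave its interval. Gate alternatives do not bear on the comparison over all nuclei, which uses no gate. With library set 1 alone, *Gpr108* in vascular against excitatory nuclei was 0.852 and *Tmem165* with against without viral UMIs in excitatory nuclei 0.767. With every nucleus assigned by multinomial likelihood, *Tmem165* in astrocytes against excitatory nuclei was 1.62, and viral load against excitatory nuclei was 5.17 in SST nuclei and 0.685 in astrocytes. Unthinned, viral load against excitatory nuclei was 0.969 in VIP nuclei, the reverse of the thinned order, 0.416 in astrocytes, 0.335 in oligodendrocytes, 0.349 in OPC and 0.337 in microglia. Genes past 1.5-fold with against without viral UMIs numbered 2257 over all nuclei with a minimum of 50 UMIs and 210 after thinning, and 1437 and 32 within excitatory nuclei. Among the 210 over all nuclei after thinning was 1 listed host gene. Within excitatory nuclei, 6 listed genes were among the 1437 with the lower minimum and 0 among the 32 after thinning. The numbers of genes tested after thinning over all nuclei are given with the host genes above. For the other counts they are not given, so the listed genes are not compared with all genes there. Fewer genes had enough UMIs after thinning, which also moved nuclei to the group without viral UMIs, and no p-value belongs to these counts.

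For ATAC-Seq, DESeq2 called 817 regions for SST, 3661 for PV and 9952 for VIP, and edgeR without a filter 568 for SST and 1218 for PV. Leaving out each sample in turn gave 4442 to 7465 for SST, 4167 to 18315 for PV and 12367 to 26983 for VIP. At the start sites it gave log2 folds of -0.86 to -0.24, -0.18 to 0.28 and -0.13 to 0.63 for SST at *AU040320*, *Gpr108* and *Tmem165*, -0.87 to -0.56, -0.94 to -0.70 and 0.84 to 1.27 for PV, and 1.11 to 1.42, 0.65 to 0.95 and -1.51 to -1.14 for VIP. With DESeq2, *Gpr108* for SST was -0.005 and *Tmem165* for PV 0.909. Without a filter, PV folds were -0.89, -0.98 and 0.91 and the VIP fold at *Tmem165* was -1.14, none past the test. The replicate block, for numbers that did not pair the samples, gave 4929, 11037 and 19141 calls. The cause of these changes was not tested.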
